A study of Rattus norvegicus with 42 samples.

Results

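Stable TSS peaks are the deposited tag clusters whose level stayed in a narrow range across both muscles and all phases of unloading and recovery. Levels are CPM, the tags of a peak after a library's tags in deposited peaks outside the mitochondrial chromosome (MT) are scaled to 1000000. The peaks were selected on these levels: each of the 14 group means was at least 5 CPM, and the highest group mean exceeded the lowest by at most 75%. This rule kept 265 of the 9971 deposited peaks. Of the 9969 peaks not on MT, 5304 were on the 5 CPM floor, and 5039 of those exceeded that limit. The rule uses the measured levels of all 42 libraries, so levels and their ratios are only described. Tests of the phases on these levels, given further on, are likewise a description.

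The libraries were made from 21 mature Wistar rats, and each animal gave the slow soleus and the fast extensor digitorum longus (EDL). The groups of 3 animals were active controls, rats suspended by the tail for 1, 3 or 7 days (D1, D3 and D7), and rats that were first suspended for 7 days and then walked freely for 1, 3 or 7 days (R1, R3 and R7). All of it is whole muscle, so a smaller part of a cell type in the muscle and less RNA per cell cannot be told apart. Libraries held between 1778712 and 23103236 tags, and the 3 libraries of EDL D1 held 1778712, 2650176 and 14556431 tags. At the depth of the shallowest library a level of 5 CPM stood for 7.59 tags. Every stable peak had tags in every library, and the lowest count was 3. Sequencing lanes held 7 libraries each. Lane 1 had all 6 controls and lane 4 all 6 R1 libraries, so lane and phase cannot be fully told apart for these groups. Lane 2 held only D1 and D3, lane 5 only R3 and R7, lane 3 all soleus D7 libraries and lane 6 mostly EDL. The limit thus reaches other phases and, in part, the comparison of the muscles.

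CAGE is made to read the capped 5′ ends of RNA, so the tags of a peak are usually read as the place where transcription starts and as the amount of capped RNA a promoter gave. Some promoters start from 1 dominant position and others from a broad stretch of positions, and broad promoters often belong to genes used in all cells. The soleus holds posture and loses mass quickly when the hindlimb is unloaded, whereas the EDL is used in fast movement and is usually less affected. A peak whose share of the tags hardly moves through such a change is what an experimenter would look for in a reference promoter, but a share can be steady only relative to the total it is taken from. The files used here do not pair the peaks with genes, and no gene was assigned to any of them.

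The stable peaks were divided into 2 sets by position. In 5 places at least 3 of them followed each other with gaps of at most 100 kb, and these dense runs held 39 peaks. The other 226 peaks were not in a run, though some lay close to another stable peak. For example, chr14:46329466-46329910 and chr14:46329977-46330102 were 66 nt apart on the minus strand. The definition of a run was chosen after the positions had been seen. The largest run, chr14:46517576-46687949 on Rnor_6.0, held 16 stable peaks, all on the plus strand. Further runs were chr1:11903577-11975077 with 9 stable peaks, chr5:91128668-91140984 with 6, chr6:30628568-30641290 with 5 and chr1:89017043-89179873 with 3. The last of these was unlike the other 4, because its peaks stood at 38.7 to 304 CPM. Its 3 stable peaks were spread over 163 kb.

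The peaks of the dense runs were high and wide. Their median level was 7383 CPM and their median width 1062 nt, and 21 of 39 were at least 1000 nt wide. Outside the runs the median level was 39.4 CPM and the median width 204 nt, and 5 of 226 peaks were at least 1000 nt wide. The other peaks on the floor had a median level of 23.6 CPM and a median width of 226 nt. Tags covered 96.7% of the positions of a run peak (median), against 68.0% outside the runs and 65.0% in the other peaks on the floor. The central 80% of the tags spanned 516 nt in the run peaks, 42.5 nt in the stable peaks outside them and 44 nt in the other peaks on the floor (medians), so outside the runs both medians lay close to those of the other peaks. Whether the tags of the run peaks mark promoter starts was not tested.

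**Figure D1:**
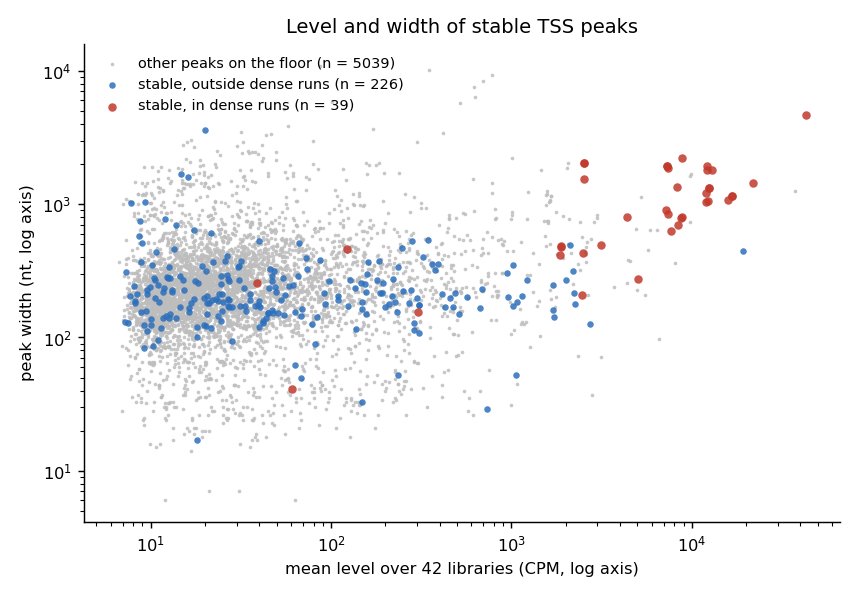
Mean level over 42 libraries (CPM, log axis) against peak width (nt, log axis) for the 5304 peaks on the 5 CPM floor; red points are the 39 stable peaks in dense runs, blue points the 226 outside them and grey points the other 5039 peaks. Most red points lie at the upper right, at a median of 7383 CPM and 1062 nt, while blue points are spread through the grey ones.

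The dominant start, the position with most tags, took a median of 21.7% of a stable peak's tags, 22.2% outside the runs and 23.4% in the other peaks on the floor. It took at least 50% of a peak's tags in 12 of 265 stable peaks (4.53%) and in 745 of 5039 other peaks on the floor (14.8%). All 12 lay outside the runs. The most focused was chr7:2504493-2504808 on the plus strand, where 85.3% of the tags began at 1 position and the mean level was 2181 CPM. The dominant position was the same in soleus and EDL in 239 of 265 stable peaks (90.2%) and in 86.7% of the other peaks on the floor. The narrowest stable peaks were chr5:98436483-98436499 (17 nt, 18 CPM) and chr3:102594850-102594878 (29 nt, 733 CPM). The widest were chr14:46643057-46647705 (4649 nt, 43039 CPM) and chr7:117230367-117233938 (3572 nt, 20.03 CPM), and the latter spread its tags so thinly that the dominant start took 2.82%.

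Neighbours were counted on each strand. A peak on the same strand lay within 500 nt of 34 of 39 run peaks, of 19 of 226 stable peaks outside the runs (8.41%) and of 643 of 5039 other peaks on the floor (12.8%). A peak on the opposite strand lay within 500 nt of 37 of 39 run peaks, of 42 of 226 stable peaks outside the runs (18.6%) and of 532 other peaks on the floor (10.6%). No same-strand peak lay within 100 kb of 91 of the 226 stable peaks outside the runs (40.3%) and of 1763 of the other peaks on the floor (35%). In the runs this held for 0 of 39, where the gap that defines a run bears on the count. Among the chromosomes that held stable peaks, their part ran from 2.27% of the floor peaks of chromosome 15 to 9.30% of those of chromosome 14, where the largest run lies.

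Above 10 CPM the share of peaks that were stable rose with level. It was 2.64% of the floor peaks between 10 and 20 CPM, 4.08% between 50 and 100 CPM, 9.95% between 300 and 1000 CPM and 36.7% above 1000 CPM (51 of 139). Without the runs, 16 of 104 peaks above 1000 CPM were stable (15.4%). Of the peaks between 5 and 10 CPM, 5.07% were stable. In this range the floor leaves little room between a peak's level and its lowest group mean, which bears on this share. The counting error, set by the number of tags, was 14.3% of the level at 5 to 10 CPM and 0.904% above 1000 CPM (medians), while the coefficient of variation (CV, SD over mean) between the 42 libraries was 37.2% and 29.1%, so counting was the smaller part of the spread at each end.

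The 4 large runs enclosed 36 stable peaks, 83 other peaks on the floor and 4 peaks under it. The 83 others, which the rule left out for their ratio, had a median level of 523 CPM and a median ratio of 4.52 between the highest and the lowest group mean, with a highest ratio of 13.8. They were on the minus strand in 51 cases, whereas 32 of the 36 stable peaks were on the plus strand. The mean over the EDL groups exceeded that over the soleus groups in 31 of the 36 stable peaks and in 71 of the 83 others, and with TMM sizes in all 36 and in 78.

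Several stable peaks shared their profile of starts. Profiles of log tag counts along the peak were compared at their best offset between the 252 stable peaks of at least 100 nt, and pairs with Pearson's r of at least 0.95 across positions (a description, since neighbouring positions are not independent) were joined. This gave 9 families with 37 peaks, 28 of them in the runs. The largest family had 12 peaks on 4 chromosomes, with levels from 3150 to 43039 CPM. Its closest pair, chr1:11967774-11968923 on the plus strand and chr1:11907762-11908914 on the minus strand, had r = 0.993 and mean levels of 16676 and 16677 CPM. Outside the runs, chr2:208420027-208420202 and chr2:208577011-208577186, both on the minus strand, had r = 0.993 and mean levels of 306 and 307 CPM. Their control libraries of soleus read 288, 344 and 367 CPM at the first and 295, 342 and 342 CPM at the second. The R1 libraries of soleus read 150, 262 and 297 CPM against 154, 269 and 305 CPM, close to each other in each group. The file headers call the counts rescued tags, and the paper's methods let a read match as many as 20 loci at first, in a mapping that may not be the one behind these files. Whether the tags of such pairs come from 1 locus or from both was not tested. Counting each family as 1 would leave 237 stable peaks.

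The stable peaks took a large part of every library. Their summed share of the tags ranged from 31.5% (soleus D7, animal U2) to 51.8% (soleus D1, animal U25), with a median of 39.2%. The 39 run peaks alone took 25.3% to 44.5%, and the run on chromosome 14 took 13.2% to 23.7%. The 226 peaks outside the runs took 4.34% to 7.48%. By group, the run peaks took 31.9% ± 3.85 (SD, n = 3) in soleus controls, 36.1% ± 7.34 at soleus D1, 28.3% ± 3.14 at soleus D7 and 29.8% ± 2.80 at soleus R1. In EDL they took 35.3% ± 1.57 in controls, 37.5% ± 2.55 at D1, 37.4% ± 1.998 at D3 and 31.3% ± 2.62 at R1. The run peaks are thus a large part of the total on which their own CPM rests.

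**Figure D2:**
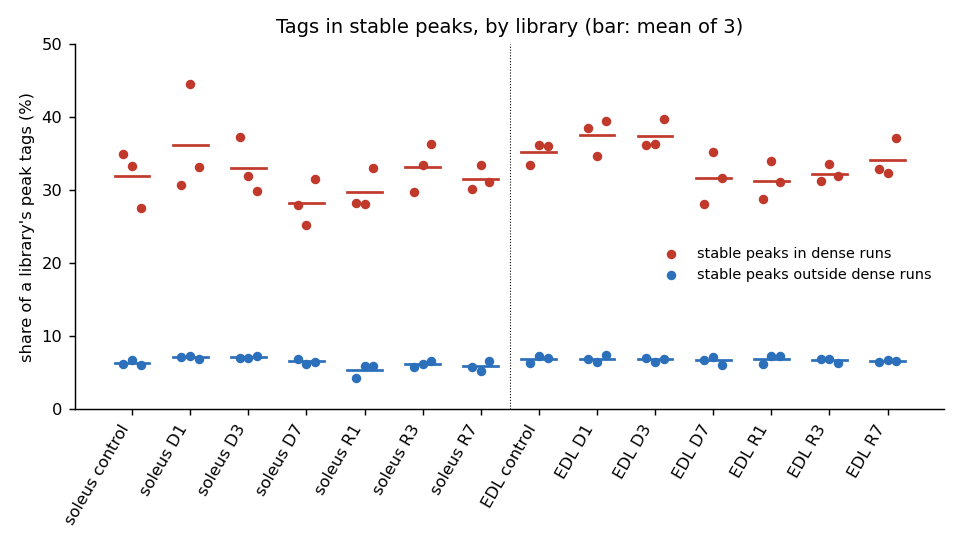
Share of a library's peak tags (%) in the stable peaks of the dense runs (red) and outside them (blue), 3 libraries for each of the 14 groups, with bars at the group means. Red points lie between 25.3% and 44.5%, with soleus D1 holding the most spread group, and blue points between 4.34% and 7.48%.

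Single peaks show the libraries behind a level called stable on the scale of the rule. The highest and widest peak, chr14:46643057-46647705, read 33383, 42166 and 43248 CPM in soleus controls, 32014, 37334 and 41398 CPM at soleus D7, and 44896, 51590 and 53223 CPM at EDL D1. Soleus D7 was the lowest group (mean 36915) and EDL D1 the highest (49903), a ratio of 1.35. With TMM sizes the ratio of this peak was 2.38 and with DESeq2 size factors 2.497, both over the limit. One soleus D1 library stood above all others at 61086 CPM. The next highest peaks were chr14:46640859-46642302 in the same run, with libraries from 17040 to 29360 CPM, and chr14:46329466-46329910 on the minus strand, which lies outside the runs. At the latter, soleus R1 was the lowest group with 12299, 15132 and 16860 CPM and EDL D1 the highest with 17226, 25408 and 27478 CPM. Its ratio was 3.05 with TMM sizes and 3.20 with DESeq2 size factors, both over the limit. The narrow peak chr3:102594850-102594878 read 567, 702 and 806 CPM in soleus controls and 850, 888 and 982 CPM at EDL D1, its highest group. The widest peak outside the runs, chr7:117230367-117233938, read 17.0, 20.2 and 20.96 CPM in soleus controls and 21.9, 23.5 and 30.7 CPM at soleus R1, its highest group.

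On the scale of the rule, the 5 peaks with the lowest ratio of group means were chr1:11907762-11908914 (group means from 14613 to 18318 CPM), chr1:11967774-11968923 (a ratio of 1.26), chr20:56181461-56181645 (1.27), chr6:30628568-30629645 (1.27) and chr14:46684853-46685891 (1.28). All but the peak on chromosome 20 belong to the runs and to the family of 12, so these 4 are not separate examples. With TMM sizes the ratios of these 4 were 2.19, 2.20, 2.23 and 2.35, so they held their place on the scale of the rule and not on this one. At chr1:11907762-11908914 the lowest group, soleus D7, read 12959, 14702 and 16177 CPM, and the highest, EDL D1, read 16869, 18635 and 19449 CPM. In both peaks of chromosome 1, in the peak of chromosome 6 and in that of chromosome 14, soleus D7 was the lowest and EDL D1 the highest group.

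The peak on chromosome 20 had the lowest ratio of group means outside the runs on the scale of the rule, at 148 CPM over all libraries. Its ratio was 1.74 with TMM sizes, within the limit, and 1.85 with DESeq2 size factors, over the limit. Its soleus controls read 156, 156 and 173 CPM, its EDL R1 libraries, the lowest group, 117, 124 and 156 CPM, and its EDL R7 libraries, the highest group, 110, 161 and 232 CPM. The spread within EDL R7 exceeded the whole range of the group means, from 132 to 168 CPM. A low ratio of means went here with a wide spread between animals. Other low ratios outside the runs were those of chr14:46329977-46330102 (1.30 at 2725 CPM), chr1:229638857-229639460 (1.38 at 21.7 CPM), chr1:264756254-264756463 (1.40 at 55.4 CPM) and chr5:141405391-141405576 (1.41 at 225 CPM). With DESeq2 size factors these ratios were 1.94, 1.68, 1.92 and 2.15, and of the 4 peaks chr1:229638857-229639460 alone stayed within the limit.

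**Figure D3:**
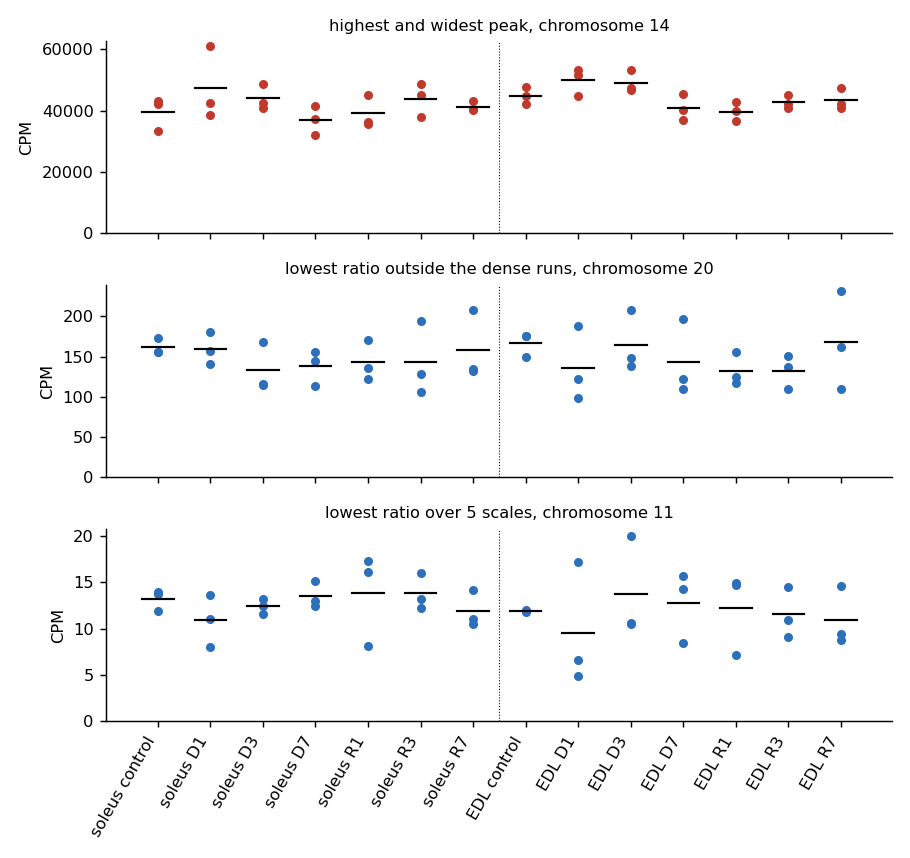
CPM of 3 stable peaks in the 14 groups; points are the 3 libraries of a group and bars the group means, with axes that start at 0. The peak of chromosome 14 lies between 32014 and 61086 CPM in all libraries, and the peaks of chromosomes 20 and 11 have single libraries far from their group means, as at EDL R7 (110 to 232 CPM) and EDL D1 (4.88 to 17.2 CPM).

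Peaks on either side of the limits of the rule had similar levels. The 3 stable peaks with the highest ratios were chr1:174378815-174379005 (18.8 CPM in EDL controls to 32.9 CPM at soleus R1), chr11:83986187-83986369 (8.15 to 14.2 CPM) and chr11:32087871-32088024 (181 to 316 CPM). Just outside the limit were chr7:117394266-117394469 (5.93 to 10.4 CPM), chr1:190555075-190555211 (198 to 347 CPM) and chr12:25561998-25562114 (7.39 to 12.9 CPM). At the floor, the lowest group means kept were 5.24, 5.35 and 5.62 CPM, and the nearest peaks that met the ratio but missed the floor had 4.75, 4.47 and 4.18 CPM. The library CV was 24.9%, 29.2% and 28.8% in those 3 just above the floor and 36.5%, 37.0% and 33.4% in those just under it.

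The spread between animals was wide even in stable peaks. Within a group the CV was 16.7% in stable peaks and 24.0% in the other peaks on the floor (median over peaks of each peak's median group). The highest library stood 2.91 times over the lowest in the median stable peak, and 10.7 times at most (chr5:150243069-150243225, from 1.98 to 21.1 CPM), against 6.37 times in the median other peak. For the run peaks the median was 2.32 times, and outside the runs 2.97 times. The peak chr5:150243069-150243225 was weak (mean 9.42 CPM), and its lowest reading rests on few tags. In the shallowest library 5 CPM stood for 7.59 tags. Means over a sequencing lane differed by a factor of 1.26 between the highest and lowest lane in stable peaks and of 1.64 in other peaks (medians). The mean over the 7 soleus groups and that over the 7 EDL groups differed by a factor of 1.09 in the median stable peak and of 1.33 in the median other peak. The rule bounds the group means of a stable peak, so its lower spread between libraries, lanes and muscles follows at least in part from the selection. Soleus was the higher muscle in 130 of 265 stable peaks (49.1%) and in 77.2% of the other peaks on the floor. This split turned with the library size: soleus was higher in 17 of the 265 with TMM sizes (6.42%) and in 8 with DESeq2 size factors (3.02%), against 58% and 52.4% of the others, while with the MT peaks in the total or with CTSS totals it was higher in 142 and 136.

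The groups at the edges of the range were uneven. EDL D1 held the lowest mean in 71 stable peaks, soleus R1 in 49 and EDL controls in 34. The highest mean was most often that of soleus D3 (39 peaks), EDL R1 (33) and EDL D1 (29). Among all 5304 peaks on the floor EDL D1 was lowest in 1955, soleus R1 in 564 and EDL controls in 1035. Soleus D3 was highest in 511 of them, EDL R1 in 231 and EDL D1 in 194. Soleus R1 was highest in 1556 of them and in 21 stable peaks. The EDL D1 libraries included the shallowest of all, and in that of animal U25 the median stable peak outside the runs stood at 0.679 of its own mean. Whether depth has a part in this was not tested. Without the EDL D1 group 612 peaks would pass the rule, and without the soleus R1 group 432. Without the EDL D1 library of animal U26, the deepest of that group, 150 would pass, 147 of them among the 265, and without that of animal U25, 394.

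The set depended on the library size that defines a CPM. With the MT peaks counted in the total, 280 peaks were stable and 249 of the 265 were among them. With all CTSS tags as the total, 251 were stable and 182 of the 265 among them. With effective library sizes by TMM, which fits the total to the middle of the peaks and so is little moved by a few very high ones, 743 peaks passed and 88 of the 265 were among them, 1 of them in the runs. With DESeq2 size factors 788 passed, and 80 of the 265, none of the 39 run peaks, were among them. The median ratio of the run peaks went from 1.63 on the scale of the rule to 2.40 with TMM and 2.51 with DESeq2, and that of the stable peaks outside the runs from 1.65 to 1.84 and 1.91. The median over all peaks on the floor moved the other way, from 2.84 to 2.45 and 2.44. Relative to non-MT tags and a geometric mean of 1, the TMM size was 1.28 on average at soleus R1, 1.05 in soleus controls, 0.857 in EDL controls and 0.742 at EDL D1.

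**Figure D4:**
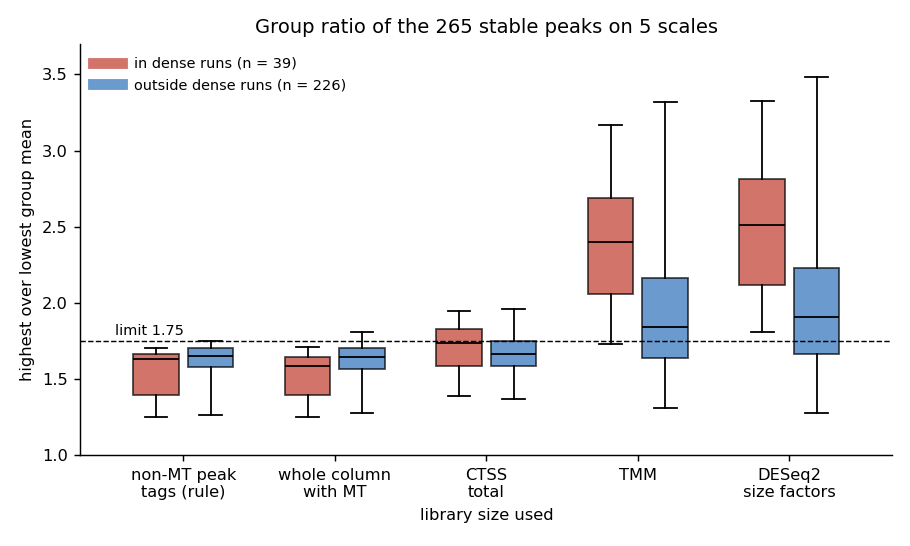
Ratio of the highest to the lowest of the 14 group means for the 265 stable peaks on 5 library sizes; boxes show quartiles and medians, whiskers the full range, red for the 39 peaks in dense runs and blue for the 226 outside. With TMM the red median is 2.40 and with DESeq2 size factors 2.51, both over the dashed limit of the rule, while on the other 3 scales every peak lies under 2.

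The peaks that stayed within the ratio on all 5 scales numbered 50, a set picked here after the values had been seen. None was in a run, and 3 were in families. Their levels ran from 8.78 to 1014 CPM (median 21.2) and their widths from 50 to 604 nt (median 214 nt). The peak with the lowest worst ratio over the scales, chr11:32620099-32620384 on the minus strand, stayed between 1.32 and 1.49. Its libraries read 11.9, 13.8 and 13.9 CPM in soleus controls, 8.14, 16.1 and 17.3 CPM at soleus R1 and 11.8, 11.9 and 12.1 CPM in EDL controls. At EDL D1 they read 4.88, 6.59 and 17.2 CPM, and these were the most spread. Next came chr2:189400541-189400886 (worst ratio 1.52 at 30.9 CPM) and chr4:93406197-93406246 (1.55 at 68.0 CPM).

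How the stable peaks stood in the phase comparisons is given only as a description. The rule used the same libraries and so limits in advance how many of its peaks can be called. Tested with edgeR over all peaks of a muscle, 40.0% of 9844 peaks were called at soleus R1 against controls at an adjusted p under 0.05, and 47 of the 265 stable peaks were among them, all 47 lower. With sequencing lane as a term, in 1 fit of all 42 libraries of both muscles, 0 stable peaks and 10 of 9944 peaks were called. That fit thus differed from the main fit in more than the lane. With 1 library left out 22 to 42 stable peaks were called, the fewest without the soleus control of animal U6. DESeq2 called 56 stable peaks and 4493 of 9958 peaks in all. With a change of more than 2.38-fold asked for as well, 23.3% of all peaks and 0 stable peaks were called, a count that the limit of the rule leaves little room to differ. The direction turned with the scale. On the TMM scale the median log2 change was −0.31 in the stable peaks and 0.05 over all peaks tested. With CTSS totals as library sizes the medians were 0.07 and 0.44, and 3 stable peaks were called, all higher.

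The remaining phases gave few calls. For the stable peaks the rule limits these counts in advance, at adjusted and unadjusted p alike, so they too are only a description. At soleus R7 6.16% of all peaks and 1 stable peak were called, and at soleus D1, D3, D7 and R3 0 stable peaks were called where 2.81%, 1.04%, 0.132% and 2.84% of all peaks were. In EDL no stable peak was called in edgeR in any phase, with 3.85% of all 9341 peaks called at D1, 1.55% at D3, 1.10% at D7 and 0% at R1, R3 and R7. Between 3 (D1 and R7) and 6 (D7 and R1) of the stable peaks had an unadjusted p under 0.05 in EDL, as did 413 (R7) to 1675 (D3) of all 9341. In the soleus phases other than R1 the counts were 13 to 22, and 1087 (D7) to 2452 (R7) of all 9844. With the fold asked for as well, which the rule all but precludes for its members, 0 stable peaks were called in any phase, and of all peaks 1.97% were called at soleus D1, 0.721% at D3, 0.122% at D7, 1.66% at R3 and 4.18% at R7, 3.16% at EDL D1, 1.34% at D3, 1.04% at D7 and 0% at R1, R3 and R7.

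The rule did not use the position of starts within a peak, so their use was open to a test, although its power follows the number of tags. In each library the share of a peak's tags at its dominant start was taken, and its log odds were compared with limma over the 5207 floor peaks with a pooled dominant share between 5% and 95%, of which 264 were stable. Between soleus and EDL, over the 7 groups of each, 58 stable peaks had a different dominant share at an adjusted p under 0.05, while 16.9% of all peaks tested were called. Among peaks on a floor of 10 CPM, 28.1% of 217 stable peaks and 24.8% of all 3116 were called. The share was higher in soleus in 22 of the 58 and lower in 36, and this split was not counted over all peaks called. Of the 58 peaks, 10 were in the runs and 8 in profile families, so some of these calls are not separate.

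Most of these differences were small. Among the 58 the median difference was 4.38 percentage points, 24 exceeded 5 points and 8 exceeded 10 points. The mean shares of soleus and EDL were within 5 points of each other in 238 of the 264 peaks tested, and within 2 points in 141. In every one of the 58 the ranges of the 21 soleus and 21 EDL libraries overlapped, as they did in all but 2 of the 878 peaks called. Soleus and EDL of the same animal differed in 1 direction in all 21 animals in 2 of the 58 peaks (3.45%, against 5.47% of the 878), and in at least 18 animals in 28 (48.3%, against 43.6%).

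The largest difference was at chr20:26892998-26893209 on the plus strand, a weak peak at 8.42 CPM with 9 to 178 tags in a library. Its dominant start took 23.4% to 52.9% of the tags in soleus libraries (median 36.4%) and 3.03% to 44.4% in EDL (median 20%). The mean share was 14.7 points higher in soleus (37.0% ± 8.09 against 22.2% ± 12.6, SD, n = 21; limma adjusted p = 1.57e-05), and it was higher in soleus in 17 of 21 animals. The EDL libraries read 33.3%, 37.8% and 44.4% at D1, where the first and the last rest on 12 and 9 tags, and 4%, 9.62% and 13.3% at R7, phases that were not tested against each other. At D1 the mean was higher in EDL (38.5% against 33.3%), and at D3 the means were 34.1% in EDL and 34.3% in soleus.

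At chr15:2648199-2648570 on the minus strand (184 CPM) the dominant start took less of the tags in soleus. Soleus libraries ran from 26.9% to 51.8% (median 41.1%) and EDL libraries from 32.2% to 63.5% (median 53.3%). The mean was 12.9 points lower in soleus (39.8% ± 7.49 against 52.7% ± 7.95, n = 21; limma adjusted p = 9.73e-06), and EDL was higher in 20 of 21 animals. EDL D3 held the lowest EDL libraries, with 32.2%, 34.0% and 49.0%, and overlapped the soleus range.

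At chr4:99746390-99746579 on the minus strand (35.4 CPM) soleus libraries ran from 32.1% to 51.3% and EDL libraries from 18.9% to 49.0%. The mean was 11.8 points higher in soleus (42.3% ± 5.72 against 30.6% ± 6.97, n = 21; limma adjusted p = 4.62e-06), in 19 of 21 animals. The 3 soleus R1 libraries (49.8%, 50.5% and 51.3%) lay above all control libraries of soleus (40.3%, 43.3% and 44.0%), but this phase difference was not called (limma adjusted p = 0.463).

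The next peaks, chr1:11905557-11905989 on the minus strand and chr14:46687740-46687949 on the plus strand, belong to the runs and read nearly alike, so they are not separate examples. The first was joined to no profile family, so the families can miss peaks that read alike. Their soleus libraries ran from 22.7% to 73.1% and from 22.2% to 73.2%, and their EDL libraries from 19.8% to 48.4% and from 18.9% to 48.1%. Soleus was higher by 11.1 points in each (limma adjusted p = 0.0283 and 0.0292) and in 18 of 21 animals. The highest of the libraries, 73.1% and 73.2%, were both at soleus D3, where the lowest were 22.7% and 22.2%, so the spread within 1 group exceeded the difference between the muscles.

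**Figure D5:**
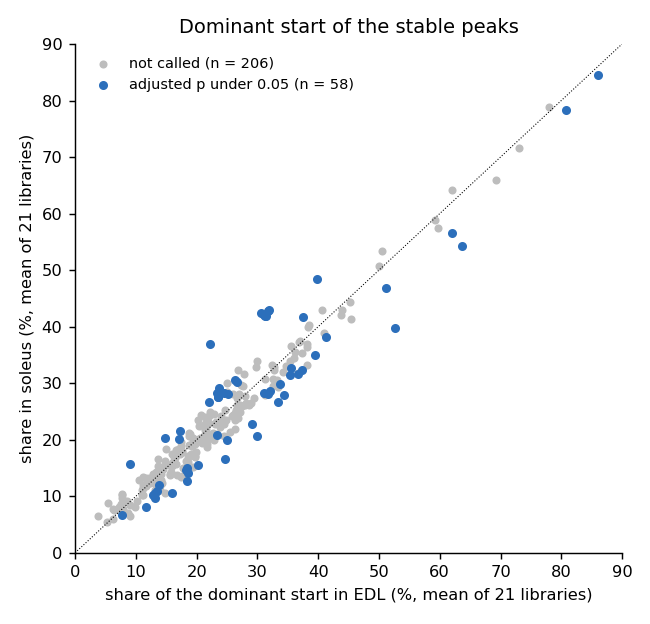
Mean share of the dominant start (%) in 21 EDL libraries (x) and 21 soleus libraries (y) for the 264 stable peaks tested; blue points are the 58 peaks called by limma at an adjusted p under 0.05, grey points the other 206, and the dotted line marks equal shares. Most points lie near the line, 141 of them within 2 percentage points.

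In recovery the dominant share was tested at R1. At soleus R1 against controls 1 of 264 stable peaks was called (0.730% of all peaks were), and 39 had an unadjusted p under 0.05, as did 688 of all 5207. It was chr10:81653268-81653792 on the minus strand (281 CPM), where the dominant start took 7.24%, 9.15% and 10.2% of the tags in soleus controls and 3.36%, 4.91% and 5.01% at soleus R1. The groups did not overlap, and the mean was 4.43% at R1 against 8.86% in controls (limma adjusted p = 0.00409). Soleus D7, R3 and R7, not tested here, also lay below the controls. D7 read 6.07%, 6.64% and 7.09%, R3 had a mean of 5.54%, and R7 read 5.52%, 5.88% and 6.602%. Soleus D1 (7.07%, 7.80% and 9.19%) and D3 (7.36%, 8.09% and 8.23%) overlapped the controls. In EDL the same start took 7.47%, 7.86% and 8.34% in controls and 7.12%, 8.36% and 8.55% at R1. The means of the EDL groups ran from 6.45% at R3 to 8.60% at D1, with 7.89% in controls. The call was lost with the soleus R1 library of animal U18 left out, and also with sequencing lane as a term; lane 1 held 1 library besides the controls. With precision weights 30 stable peaks and 566 of all 5207 were called.

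At EDL R1 0 stable peaks and 0% of all peaks were called by limma, with 19 stable peaks and 368 of all 5207 at an unadjusted p under 0.05. The R1 change of the share differed between the muscles in 0 stable peaks and in 0.0576% of all peaks at an adjusted p under 0.05, with 9 stable peaks and 358 of all 5207 at an unadjusted p under 0.05. With precision weights EDL R1 also gave 0 stable peaks, and the difference between the muscles gave 1, with 15 of all 5207.

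The mean start, the tag-weighted average position counted in nt from the 5′ end of the peak, differed between soleus and EDL in 82 of 265 stable peaks at a limma adjusted p under 0.05, while 25.9% of 5301 peaks tested were called. Starts lay further upstream in soleus in 60 and further downstream in 22, a split that was not counted over all peaks called. The shifts were short: the median of the 82 was 2.48 nt, and 61 of them were at most 5 nt. Of these peaks 34 were also called for the dominant share. The longest shift was at chr14:46643057-46647705, where the mean start was 168 nt further upstream in soleus (SE 49.4 nt, adjusted p = 0.0113) in a peak of 4649 nt. Outside the runs the longest was at chr10:81653268-81653792, with a mean start at 285 nt in soleus and 316 nt in EDL, 31.2 nt further upstream in soleus (SE 3.51 nt, adjusted p = 7.03e-08). This is the peak whose dominant share was called at soleus R1. At chr20:26892998-26893209 the mean start was 19.4 nt further downstream in soleus (SE 2.49 nt, adjusted p = 6.54e-07).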

How the data were processed

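CAGE (nAnT-iCAGE) of soleus and EDL from 21 rats gave 42 libraries in 14 groups of 3. The paper's methods name Trimmomatic, STAR, PromoterPipeline and DPI1 (the peak caller) on Rnor_6.0, with reads at first allowed up to 20 loci, while the submitters' processing notes name Trimmomatic 0.38, BWA and HISAT2, so the aligner of these files is uncertain. The authors deposited raw counts of rescued tags at each start position (CTSS) of each library, and raw counts over 9971 tag clusters. Normalized columns beside both were not used here. The methods describe unfiltered, permissive and robust sets of peaks, filtered by the highest CTSS count and normalized level in a peak. Which of them the deposited clusters come from was not settled here. For the clusters on the floor, each count equalled the sum of the CTSS counts inside it. The 2 MT clusters took 3.42% to 13.1% of the table and were left out.

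CPM was formed over the remaining clusters in Python 3.11.15 (pandas 2.3.3, numpy 2.4.6), and the rule was applied to the group means. Phase comparisons used edgeR 4.0.16 in R 4.3.3 (quasi-likelihood, filterByExpr, TMM, the 21 libraries of a muscle in 1 fit), with DESeq2 1.42.0 as an alternative. Start use was tested with limma 3.58.1 on log2((k + 0.5)/(n − k + 0.5)), k being the tags at the dominant CTSS and n those of the peak, and on the mean start, with 42 libraries in 1 fit of 14 groups. P-values were adjusted by Benjamini-Hochberg over all peaks tested, and a call is an adjusted p under 0.05. Counting errors cover counting only. The edgeR and limma steps were tested on simulated data. Alternatives covered library size, limits of the rule, filters, weights, lane, animal and each library left out.

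The members and lists were chosen with earlier results of these data known. By rule, the text names the 5 stable peaks with the lowest ratio, the 5 with the highest level, the 3 on each side of both limits, the 2 narrowest and 2 widest, and the largest called differences of the dominant share (5 between the muscles, 3 at soleus R1, where 1 was called). All other peaks named were chosen after their values were seen. The labels give both muscles of a rat the same animal number, which pairs them. Deviations of the dominant share from the group means correlated between the muscles of an animal, across 5207 peaks, with r from −0.106 to 0.676 (median 0.0373, over 0.1 in 8 of 21 animals). Gene names, promoter sequences and motifs were not analysed here, because no genome or annotation of Rnor_6.0 was used.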

Additional observations from a re-analysis of the deposited data

How the results depend on the processing

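The number of stable peaks (265) stayed within a factor of 1.5 with the MT peaks in the total, with CTSS totals, with group medians (178, of which 139 were among the 265), with a floor of 1 CPM (268) or 10 CPM (218), and with each family counted as 1 (237). It was 743 with TMM sizes, 788 with DESeq2 size factors, 39 with a ratio limit of 1.5, 754 with a limit of 2, 1785 over the soleus groups alone and 2065 over the EDL groups alone. Alternatives chosen after seeing the data gave 468 with library sizes that leave out the peaks of the dense runs (162 of the 265 among them), 612 without EDL D1 and 432 without soleus R1. Leaving out each library gave 150 (EDL D1, U26) to 394 (EDL D1, U25).

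At soleus R1 47 stable peaks were called, all lower. With CTSS totals 0 were called lower and 3 higher. With sequencing lane as a term, in 1 fit of all 42 libraries of both muscles, 0 stable peaks and 10 of 9944 peaks were called. Lane 1 holds 1 library besides the controls, and lane 4 holds 1 besides those of R1. The count was 22 to 42 with 1 library left out; the lowest counts were 22 without the soleus control of animal U6, 25 without that of U8 and 26 without soleus R1 of U18. At EDL R1 the count was 0 under every alternative run; the other phases were not run under alternatives.

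For the dominant share, the 58 peaks called between the muscles were 45 to 78 under every alternative and 47 to 63 with 1 library left out. With the animal as a replicate block (the paired fit) they were 52, of which 50 were among the 58, and the difference between the muscles at R1 gave 0; the mean start gave 83. Of the 58, 8 were thus not called with the block. The comparisons of phases could not carry it, since each animal was in 1 phase. At soleus R1 the count was 30 with precision weights and 0 with lane as a term, and 0 to 1 with 1 library left out (0 without soleus R1 of U18). The difference between the muscles gave 1 with precision weights. The 82 peaks with a shifted mean start were 73 to 83 under the alternatives and 73 to 85 with 1 library left out. The cause of these differences was not tested. Soleus was the higher muscle in 130 stable peaks, in 142 with the MT peaks in the total, 136 with CTSS totals, 17 with TMM and 8 with DESeq2 size factors (a comparison added after seeing the data). In all, 197 of the values computed stayed within the factor of 1.5 and 21 did not. Many of these values come from settings with 1 library left out. Counts of 0 in both settings, as at EDL R1, were also taken as within the factor. The tally compares counts and not which peaks make them up, so it does not show that the set itself was kept. With CTSS totals 251 peaks were stable, but 182 of the 265 were among them. With TMM sizes 88 of the 265 were kept, and with DESeq2 size factors 80.

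A level of 5 CPM stood for 7.59 tags in the shallowest library and 101 in the deepest.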
